A study of Mus musculus with 4 samples.

Results

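The complement genes described here are 9 of the 55487 annotated genes in the table, chosen by symbol: C1ra and C1s1, C4b, C2, C3 and Cfb among the components, and Serping1, Cd55 and Cd59a among the regulators. They were measured by RNA-seq in LPC-HRas cells, a mouse liver cancer line grown without stimulation, in 2 libraries of UBXN9-overexpressing cells and 2 of control cells. UBXN9 is a UBX-domain protein encoded by Aspscr1. All 4 libraries carry the HRas background of the line. How UBXN9 was expressed, what the control cells received, and whether the libraries of a group come from separate cultures or clones is not given in the sources used here, so p-values reflect the spread of these libraries alone, which may be technical. Totals ran from 21814969 to 26292686 estimated counts per library. Levels are CPM, the usual depth-scaled unit of RNA-seq, with TMM factors, and levels of different genes are compared as CPM per kilobase of merged exons.

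Complement is a cascade of plasma and cell-surface proteins that marks targets for immune cells and can perforate membranes. In the classical pathway the proteases C1r and C1s, held by C1q, cleave C4 and C2, which form an enzyme that cleaves C3. In the alternative pathway factor B joins C3b to make another C3-cleaving enzyme. The liver is the main source of the plasma components, many other cells make some of them, and C1 inhibitor, CD55 and CD59 restrain the cascade at successive steps.

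Aspscr1 stood at 392 and 380 CPM in UBXN9-overexpressing cells, against 92.1 and 115 CPM in control cells, a log2 fold change of 1.90 with an SE of 0.18 (edgeR adjusted p = 0.00144). Both UBXN9 libraries lay above both controls, in the direction of the labels. Of 12 hepatocyte markers, 11 had under 10 counts in every library, and Alb, Fga, Fgb and Fgg had 0, so the albumin and fibrinogen transcripts that define hepatocytes were not detected in these liver cancer cells. Biliary and progenitor markers summed to 2969 and 3228 CPM in UBXN9-overexpressing cells, against 2721 and 2442 CPM in control cells, with 3 of 6 tested lower, 0 higher and Spp1 the highest. Most of that sum was Spp1, with 2742 and 2991 CPM in UBXN9-overexpressing cells, against 2483 and 2198 CPM in control cells. Spp1 was not called (edgeR adjusted p = 0.478). All 10 lymphoid markers had under 10 counts in every library. Fibroblast and stellate markers summed to 632 and 749 CPM in UBXN9-overexpressing cells, against 559 and 500 CPM in control cells, with 2 of 7 tested higher, 0 lower and Col3a1 the highest. Endothelial markers summed to 4.58 and 4.0 CPM in UBXN9-overexpressing cells, against 3.05 and 2.09 CPM in control cells, with 0 of 2 tested called and Pecam1 the highest. Myeloid markers are given with the receptors.

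The early classical proteases, C4b, C3 and Cfb all rose when UBXN9 was overexpressed, and no member fell. Counted as deposited, factor B and C4b had the largest folds, 14.7 and 13.9, with control levels of about 1 CPM or less, while the abundant C1ra, C1s1 and C3 rose by 2.76-fold, 3.15-fold and 1.97-fold. Both of the large folds belong to genes whose reads were partly divided with an overlapping entry or a close copy. How far the folds depend on that division was not tested. With such entries summed, alternatives added after seeing the data, Cfb and Gm20547 together rose by 2.84-fold, less than C1s1. The copies C4b and C4a together rose by 7.01-fold. C1ra and C1s1, some of whose deposited values were fractional too, rose by 2.76-fold and 3.11-fold when summed with C1rb and C1s2. Each sum also holds the partner's own reads, so it is not the fold of the member alone. Of the 9 members 6 were deep enough to test, and 5 of these passed in the direction of UBXN9, against 5.06% of the 13230 genes tested that were called higher and 7.44% called in either direction. In all 6 both UBXN9 libraries lay above both controls, as in 25.0% of all genes tested. The median log2 fold change of the 6 was 1.69, and that of all genes tested was -0.0056. Because the members were chosen with earlier results of these data known, these shares and medians describe the list and do not test it. In these bulk libraries a change in RNA per cell and a change in the share of cells that express a gene cannot be told apart. Each of the 6 passed the low-count filter in the control libraries too, so none entered through the UBXN9 libraries alone. The 3 not tested are C2, Cd55 and Cd59a. With 2 libraries a group the smallest two-sided p of an exact permutation test is 0.333, so the calls rest on the edgeR fit across all genes.

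**Figure D1:**
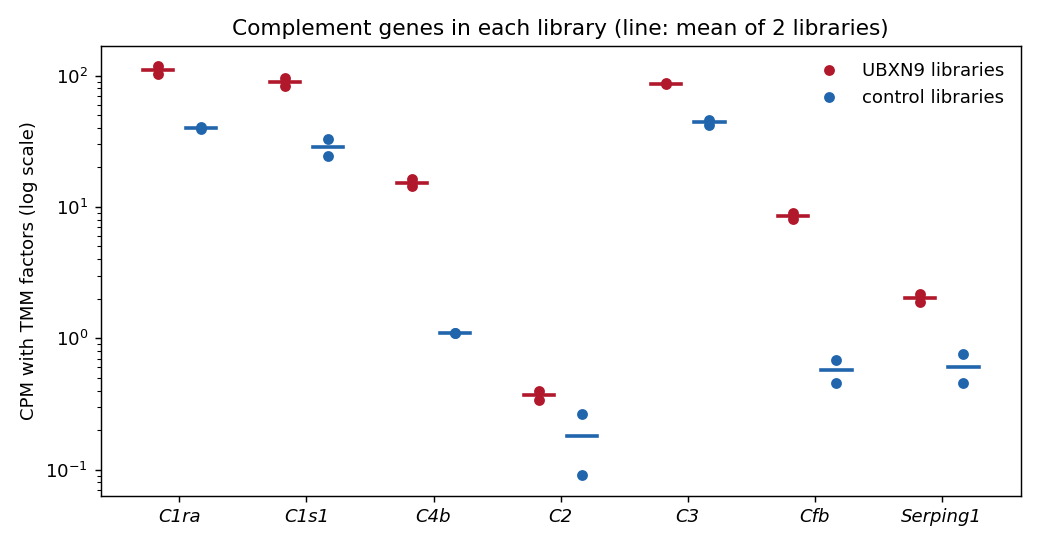
Level of 7 members in each library as CPM with TMM factors on a log scale, with UBXN9 libraries left of control libraries and a line at the mean of each pair. The UBXN9 points lie above the control points for every gene drawn. C2 is the lowest at 0.398 CPM or less, and Cd55 and Cd59a are not drawn because their libraries are at or near 0.

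C1ra and C1s1 encode the paired serine proteases of the C1 complex, of which C1r activates C1s. C1ra (ENSMUSG00000055172, chromosome 6, 124512405 to 124523443, plus strand, GRCm38) had 118 and 103 CPM in UBXN9-overexpressing cells, against 40.5 and 39.2 CPM in control cells. The groups did not overlap, and the log2 fold change was 1.47 (SE 0.16, edgeR adjusted p = 0.00284). C1s1 (ENSMUSG00000038521, chromosome 6, 124530345 to 124542359, minus strand) had 96.2 and 84.0 CPM in UBXN9-overexpressing cells, against 32.9 and 24.3 CPM in control cells. Its log2 fold change was 1.66 (SE 0.20, edgeR adjusted p = 0.00431). UBXN9 1 was the higher of its pair for both genes, and control 2 the lower.

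The balance between these neighbouring proteases moved little. C1ra took 55.0% of the counts of both in each UBXN9 library (95% exact binomial intervals 53.5% to 56.5% and 53.6% to 56.4%), and 55.2% in control 1 (52.9% to 57.4%) and 61.7% in control 2 (59.1% to 64.3%). These intervals cover counting error only. Control 2 stood apart from the other 3 libraries, while control 1 lay within the intervals of the UBXN9 pair. Close copies of both genes lie next to them. C1rb had at most 1 count in any library, although its longest transcript is 97.9% identical to that of C1ra over the shorter length. C1s2, with 95.5% identity to C1s1, had 0.796 and 1.09 CPM in UBXN9-overexpressing cells and 0.801 and 0.590 CPM in control cells, and its groups overlapped. C1rl, a C1r-like protease gene on the other side of C1ra, had 17.4 and 16.3 CPM in UBXN9-overexpressing cells, against 10.1 and 9.71 CPM in control cells. The groups did not overlap, and it did not pass (log2 fold change 0.77, SE 0.20, edgeR adjusted p = 0.0731). Its call was gained without UBXN9 1 and without UBXN9 2 (log2 fold changes 0.72 and 0.81). It was not gained without control 1 or without control 2 (0.79 and 0.74). Each of these fits leaves 1 library in a group and takes it to vary like the other group. Those without a UBXN9 library called a larger share of all genes tested higher than the reported fit. Those without a control library called a smaller share. Gm16567, antisense to C1s1, had 17 counts in UBXN9 1 and 0 in the other libraries, and without stated strand handling its reads cannot be told apart from those of C1s1.

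C4b encodes complement C4, the thioester protein that C1s cleaves. C4b (ENSMUSG00000073418, chromosome 17, 34728380 to 34743882, minus strand, GRCm38) had 14.3 and 16.3 CPM in UBXN9-overexpressing cells, against 1.11 and 1.09 CPM in control cells. This is 288 and 432 counts in UBXN9-overexpressing cells against 29 and 24 in control cells, with no overlap. Its log2 fold change was 3.80 (SE 0.27, edgeR adjusted p = 0.000484). Its neighbour C4a, known in mice as sex-limited protein and annotated in GENCODE M21 as a processed transcript, had 1.0 and 0.867 CPM in UBXN9-overexpressing cells, against 1.34 and 1.09 CPM in control cells. The groups did not overlap, and C4a did not pass (log2 fold change -0.39, SE 0.42, edgeR adjusted p = 0.668).

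The longest transcripts of C4b and C4a are 95.9% identical, and 16.5% of the 100-base windows of C4b occur unchanged in C4a, so reads of one can match the other. The deposited values of C4b and C4a were fractional in 3 of 4 libraries, and in each library they added to a whole number within 0.005, for example 28.58 and 35.42 in control 1. Reads were thus divided between the copies by the counting, by a rule that is not given in the sources used here. The stretch of 90 coding bases, without gaps, in which C4b differs most from C4a lies in exon 21 of 41 of C4b at chr17:34735429-34735518, minus strand, GRCm38. It is shown because reads over it tell the copies apart, and capitals mark the 14 bases that differ.
C4b: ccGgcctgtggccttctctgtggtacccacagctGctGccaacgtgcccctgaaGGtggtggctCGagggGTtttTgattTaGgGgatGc
C4a: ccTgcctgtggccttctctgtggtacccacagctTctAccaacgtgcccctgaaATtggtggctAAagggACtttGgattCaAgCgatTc

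C4b took 93.5% and 94.9% of the counts of both copies in UBXN9-overexpressing cells (95% exact binomial intervals 90.1% to 96.0% and 92.5% to 96.8%). In control cells it took 45.3% and 50.0% (32.8% to 58.3% and 35.2% to 64.8%). The intervals of the groups did not overlap, but they cover counting error only and take the division of reads between the copies as given. With the counts of the copies summed, the log2 fold change was 2.81 (edgeR adjusted p = 0.00104).

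C2 encodes the protease that joins C4b in the classical C3 convertase. C2 (ENSMUSG00000024371, chromosome 17, 34862604 to 34898265) had 8 and 9 counts in UBXN9-overexpressing cells, against 7 and 2 counts in control cells, or 0.398 and 0.339 CPM in UBXN9-overexpressing cells against 0.267 and 0.0907 CPM in control cells. The count of control 1 was 1 below that of UBXN9 1, and the gene was too shallow for the test. With no filter on low counts the log2 fold change was 0.97 (SE 1.01, edgeR adjusted p = 0.788), so a change of C2 was not detectable at this depth. Zbtb12 overlaps it on the opposite strand and Gm20547 on the same strand, and both had more counts than C2 in every library.

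C3 encodes the central thioester protein on which the pathways converge. C3 (ENSMUSG00000024164, chromosome 17, 57203970 to 57228136, minus strand, GRCm38) had 87.2 and 86.8 CPM in UBXN9-overexpressing cells, against 46.3 and 42.1 CPM in control cells. The UBXN9 libraries were almost level, and both stood above both controls. Its log2 fold change of 0.98 with an SE of 0.15 passed (edgeR adjusted p = 0.0121), the smallest change among the 5 called members. The call was lost without control 1 (adjusted p = 0.0532) and without control 2 (adjusted p = 0.168), at log2 fold changes of 1.04 and 0.91.

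Cfb encodes factor B, the protease of the alternative pathway convertase. Cfb (ENSMUSG00000090231, chromosome 17, 34856374 to 34862518, minus strand, GRCm38) had 9.01 and 8.03 CPM in UBXN9-overexpressing cells, against 0.687 and 0.454 CPM in control cells. In counts these are 181 and 213 in UBXN9-overexpressing cells against 18 and 10 in control cells, with no overlap. The log2 fold change was 3.87 (SE 0.34, edgeR adjusted p = 0.00104). Gm20547, a protein-coding entry on the same strand that spans Cfb and part of C2, had 69 and 106 counts in UBXN9-overexpressing cells, against 81 and 97 counts in control cells. Its log2 fold change was -0.0065 (SE 0.31, edgeR adjusted p = 0.995).

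Cfb took 72.4% and 66.8% of the counts of both entries in UBXN9-overexpressing cells (95% exact binomial intervals 66.4% to 77.8% and 61.3% to 71.9%), against 18.2% and 9.35% in control cells (11.1% to 27.2% and 4.57% to 16.5%). The deposited values of both entries were fractional in every library and added to a whole number within 0.005, for example 18.18 and 80.82 in control 1, so reads were divided between them too. With Cfb and Gm20547 summed, the log2 fold change was 1.50 (edgeR adjusted p = 0.0142).

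**Figure D2:**
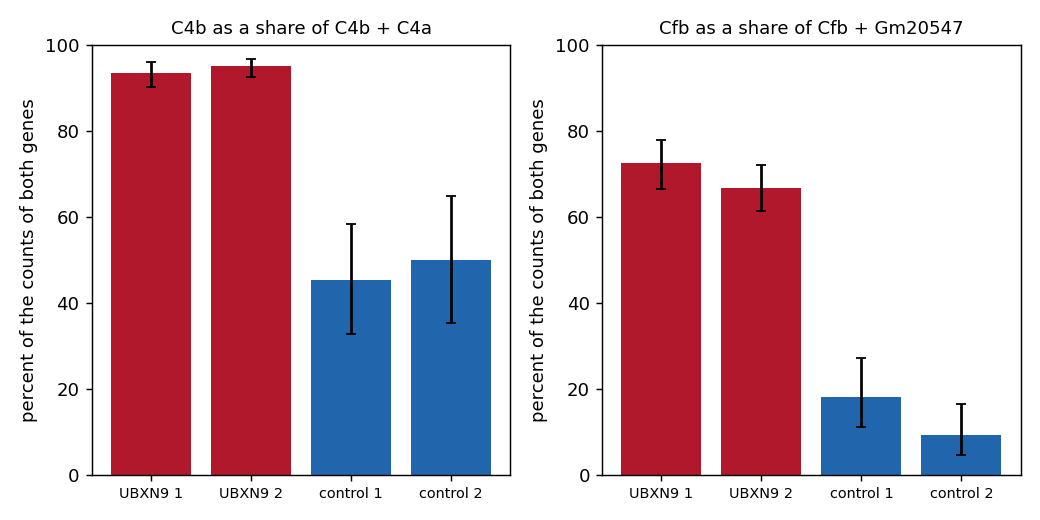
Share of C4b in the counts of C4b and C4a, left, and of Cfb in those of Cfb and the overlapping Gm20547, right, in percent for each library, with 95% exact binomial intervals. C4b makes up 93.5% and 94.9% in UBXN9 libraries, against 45.3% and 50.0% in control libraries. Cfb makes up 72.4% and 66.8% in UBXN9 libraries, against 18.2% and 9.35% in control libraries. The intervals cover counting error only and take the division of reads as given.

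Serping1 encodes C1 inhibitor, the serpin that inactivates C1r and C1s. Serping1 (ENSMUSG00000023224, chromosome 2, 84765387 to 84775444) had 1.89 and 2.19 CPM in UBXN9-overexpressing cells, against 0.763 and 0.454 CPM in control cells, or 38 and 58 counts in UBXN9-overexpressing cells against 20 and 10 in control cells. The groups did not overlap, but the log2 fold change of 1.73 with an SE of 0.44 did not pass (edgeR adjusted p = 0.0638). It passed without UBXN9 1 (log2 fold change 1.83), a fit that called a larger share of all genes tested higher than the reported fit. With no filter on low counts it passed too (edgeR adjusted p = 0.00555). It also passed with a crossed replicate block added after seeing the data (edgeR adjusted p = 0.0102). That block called 13.4% of all genes tested higher, against 5.06% in the reported fit. Serping1 did not pass in the 10 other alternatives fixed for this comparison that gave it a value. These include DESeq2 (adjusted p = 0.157) and library size alone (edgeR adjusted p = 0.107). Its log2 fold change was 2.15 without control 1 and 1.41 without control 2.

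Cd55 and Cd59a encode membrane-anchored regulators that speed the decay of C3 convertases and block assembly of the membrane attack complex. Cd55 (ENSMUSG00000026399) had 0 and 2 counts in UBXN9-overexpressing cells, against 0 and 0 counts in control cells. Cd59a (ENSMUSG00000032679) had 0 counts in all 4 libraries. A count of 0 allows up to 3 counts, or 0.149 CPM in UBXN9 1, 0.113 CPM in UBXN9 2, 0.114 CPM in control 1 and 0.136 CPM in control 2, for counting error only. Their copies Cd55b and Cd59b had at most 1 count in any library.

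Per kilobase, C1ra was the most abundant member in both groups, with 36.9 ± 3.54 CPM per kilobase in UBXN9-overexpressing cells and 13.4 ± 0.316 in control cells (SD, n = 2). C1s1 followed with 28.8 ± 2.76 and 9.13 ± 1.94, and C3 with 16.9 ± 0.0506 and 8.59 ± 0.575, in UBXN9-overexpressing and control cells. In control cells the libraries of C1s1 and C3 overlapped, whereas in UBXN9-overexpressing cells those of C1s1 lay above those of C3. Cfb and C4b stood next in UBXN9-overexpressing cells, at 3.02 ± 0.245 and 2.69 ± 0.242 CPM per kilobase with overlapping libraries, above Serping1 at 0.877 ± 0.0898. In control cells Serping1, Cfb and C4b ranged from 0.262 ± 0.0941 to 0.193 ± 0.0022 CPM per kilobase, and neighbours in that order overlapped. C2 came after them in both groups. The 6 activating members together made 92.9 and 83.9 CPM per kilobase in UBXN9-overexpressing cells, against 33.6 and 29.5 in control cells. The 3 regulators together made 0.814 and 0.956 CPM per kilobase in UBXN9-overexpressing cells, against 0.328 and 0.195 in control cells.

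Position was not used to choose the members, and 5 of them lie in 2 clusters. C4b, Cfb and C2 lie in the class III region of the major histocompatibility complex. Within 50 kb of the outermost complement gene there, 12 genes were tested, and C4b and Cfb were the ones called. The other 10, from Tnxb to Neu1, had log2 fold changes between -0.39 and 0.34. They include C4a and Gm20547, whose reads were partly divided with C4b and Cfb. Nelfe, a subunit of a transcription pausing factor next to Cfb, had 0.11 with an SE of 0.18. Around the C1r and C1s genes 5 were tested and C1ra and C1s1 were called, with log2 fold changes of 0.27 to 0.77 for the others. Nelfe was named after its values were seen.

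**Figure D3:**
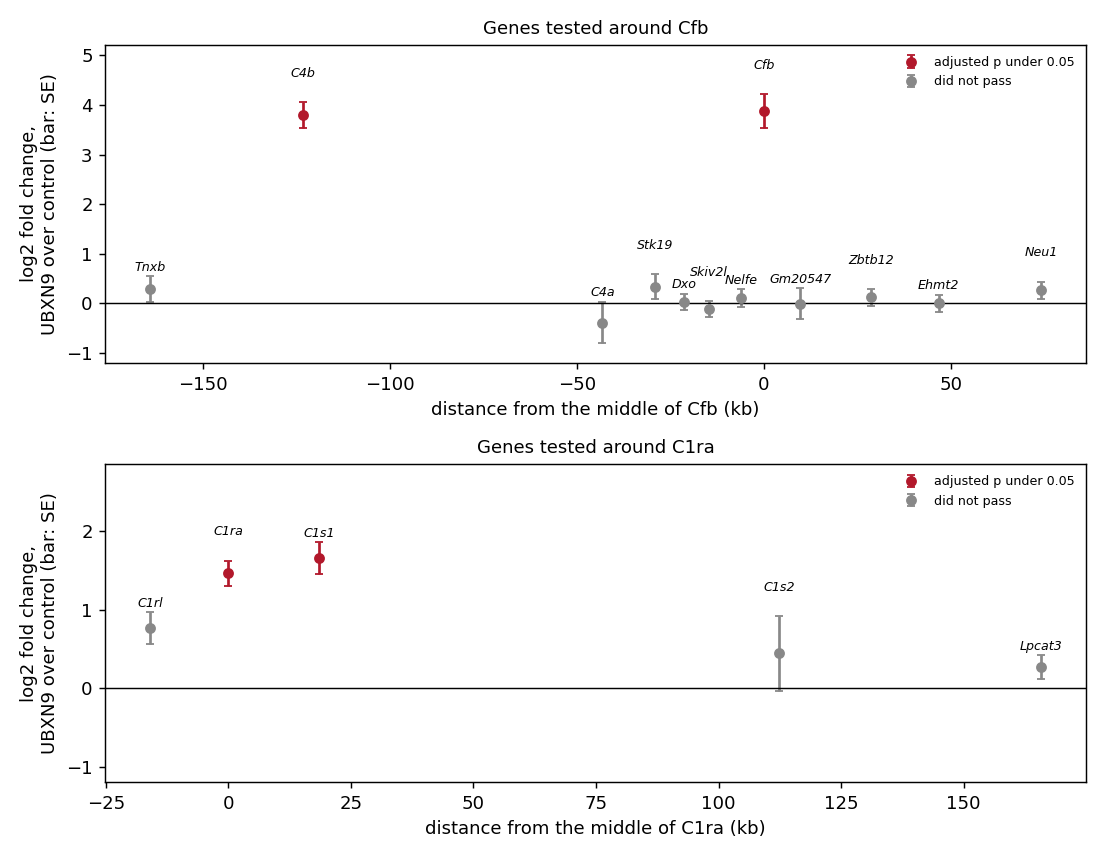
Log2 fold change, UBXN9 over control, with its SE, of the genes tested around Cfb, above, and around C1ra, below, against distance between gene middles in kb. C4b at 3.80 and Cfb at 3.87 stand over 10 neighbours between -0.39 and 0.34. Among these are C4a and Gm20547, whose reads were partly divided with C4b and Cfb. C1ra at 1.47 and C1s1 at 1.66 stand beside 3 others between 0.27 and 0.77.

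The promoter table of RefSeq (GRCm38.p6) held C1ra, C1s1, C3, Cd55 and Cd59a among the members. The 250 bases before the start are printed for C3 and C1s1, called members whose RefSeq start is also the GENCODE gene boundary. C3 lies at chr17:57228137-57228386 and C1s1 at chr6:124542360-124542609, both on the minus strand.
C3: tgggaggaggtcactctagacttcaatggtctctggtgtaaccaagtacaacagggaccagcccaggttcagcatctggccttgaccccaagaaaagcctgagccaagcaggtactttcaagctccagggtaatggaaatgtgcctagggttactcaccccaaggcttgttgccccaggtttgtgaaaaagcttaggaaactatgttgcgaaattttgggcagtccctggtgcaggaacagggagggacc
C1s1: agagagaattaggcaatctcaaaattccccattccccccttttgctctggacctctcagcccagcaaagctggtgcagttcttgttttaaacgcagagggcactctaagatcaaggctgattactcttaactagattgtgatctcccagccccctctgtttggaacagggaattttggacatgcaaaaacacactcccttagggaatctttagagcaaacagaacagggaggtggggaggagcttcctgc

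Motifs were searched on both strands: an interferon-response-like core GAAANNGAA, a STAT-like TTCNNNGAA and an NF-kB-like GGGNNTTCC. They occur in 7.13%, 7.02% and 4.98% of the 32851 promoters of that table. None of the 3 patterns occurs in the windows of C3, C1s1 or C1ra, so no letters are in capitals. The C1ra window, at chr6:124512371-124512620, runs past the GENCODE start of the gene at 124512405. Most of the bases searched for C1ra thus lie inside the annotated gene. The window of Cd59a, which had 0 counts, holds GAAAGGGAA, which fits the first pattern, 187 to 179 bases before the start. That of Cd55 holds GGAACGCCC, which fits the third on the reverse strand, 60 to 52 bases before the start. Such matches describe letters only.

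Outside the members, Susd4, Itgb2 and Cd93 were called higher and no gene was called lower. Of 54 other complement genes on the list by role, 14 were tested and 35 had under 10 counts in every library. The 3 calls stand beside 5.06% of all genes tested that were called higher. Itgb2 and Cd93 reached the low-count filter through the UBXN9 libraries alone, so they had to differ in level to be tested. Of the 12 that reached it in both controls, 1 was higher. Over the 14 the median log2 fold change was 0.12, against -0.0056 over all genes tested. Susd4, which in humans encodes a membrane protein that inhibits the classical C3 convertase, had 5.92 and 5.62 CPM in UBXN9-overexpressing cells, against 0.572 and 0.544 CPM in control cells. This 10.2-fold rise (log2 3.36, SE 0.33, edgeR adjusted p = 0.00171) was called under all 13 alternatives fixed for this comparison.

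Itgb2 encodes the beta chain of the integrin receptors for C3 fragments and had 1.69 and 1.55 CPM in UBXN9-overexpressing cells, against 0.229 and 0.363 CPM in control cells. Its log2 fold change was 2.45 (SE 0.49, edgeR adjusted p = 0.0297). The alpha chains Itgam and Itgax, which pair with it, had at most 6 counts and 1 count in any library. Cd93, a membrane glycoprotein of endothelial and myeloid cells once described as a C1q receptor, had 1.05 and 1.09 CPM in UBXN9-overexpressing cells, against 0.191 and 0.227 CPM in control cells. It passed narrowly (log2 fold change 2.34, SE 0.54, edgeR adjusted p = 0.045). Both calls were lost without control 1 (adjusted p = 0.232 for Itgb2 and 0.383 for Cd93), without control 2 (0.119 and 0.333) and by DESeq2 (0.067 and 0.189). The call of Cd93 was also lost with upper-quartile factors (adjusted p = 0.0515) and with library size alone (adjusted p = 0.0663).

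Myeloid cells are a usual source of Itgb2, Cd93 and C1q. The 10 myeloid markers summed to 74.1 and 66.0 CPM in UBXN9-overexpressing cells, against 56.6 and 57.1 CPM in control cells, mostly Cd14. Of 4 tested 1 was higher, and Clec4f, Marco and Timd4 were at 0. The C1q chains were in 1 library: C1qa, C1qb and C1qc had 21, 32 and 28 counts in UBXN9 1 and 0, 2 and 0 in UBXN9 2, against at most 1 in any control. Csf1r, a macrophage receptor, had 56 counts in UBXN9 1 and 8 in UBXN9 2, against 12 and 14 in control cells. The part of these transcripts in the calls for Itgb2 and Cd93 was not tested. Without UBXN9 1 the log2 fold changes were 2.39 for Itgb2 and 2.37 for Cd93. Those of the 5 called members ran from 0.98 for C3 to 3.89 for C4b. That fit leaves 1 UBXN9 library, so it cannot show whether these transcripts had a part in the calls.

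No change was detected in the most abundant tested genes of the other roles. Clu, which encodes clusterin, a soluble inhibitor of the membrane attack complex, had 2614 and 2603 CPM in UBXN9-overexpressing cells, against 2548 and 2520 CPM in control cells. Its log2 fold change of 0.042 had an SE of 0.19 (edgeR adjusted p = 0.943) and turned negative with upper-quartile scaling or library size alone. Cr1l, the gene for Crry, the broad membrane regulator of mouse cells, had 29.7 and 25.3 CPM in UBXN9-overexpressing cells, against 25.3 and 24.5 CPM in control cells (log2 fold change 0.14, SE 0.18, edgeR adjusted p = 0.724). Masp1, which encodes a protease of the lectin pathway, had 55.4 and 69.3 CPM in UBXN9-overexpressing cells, against 92.7 and 86.1 CPM in control cells. The groups did not overlap, and the log2 fold change of -0.52 with an SE of 0.17 did not pass (edgeR adjusted p = 0.137). Masp1 passed without UBXN9 2 (log2 fold change -0.69) and in none of the 12 other alternatives fixed for this comparison. The fit without UBXN9 2 called more of all genes tested lower than the reported fit.

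Cfp, the gene for properdin, which stabilises the alternative convertase, had 9.71 and 14.1 CPM in UBXN9-overexpressing cells, against 12.0 and 10.2 CPM in control cells. Hc, which encodes C5, had 2.89 and 5.58 CPM in UBXN9-overexpressing cells, against 5.0 and 3.49 CPM in control cells. C1qbp, for a mitochondrial protein that can bind C1q, had 419 and 329 CPM in UBXN9-overexpressing cells, against 336 and 413 CPM in control cells. In each of these the groups overlapped, and no direction held across the alternatives. Mbl1, Mbl2, C8a, C8b, C9, C4bp and Cfi, liver-made components or regulators, had 0 counts in all 4 libraries.

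**Figure D4:**
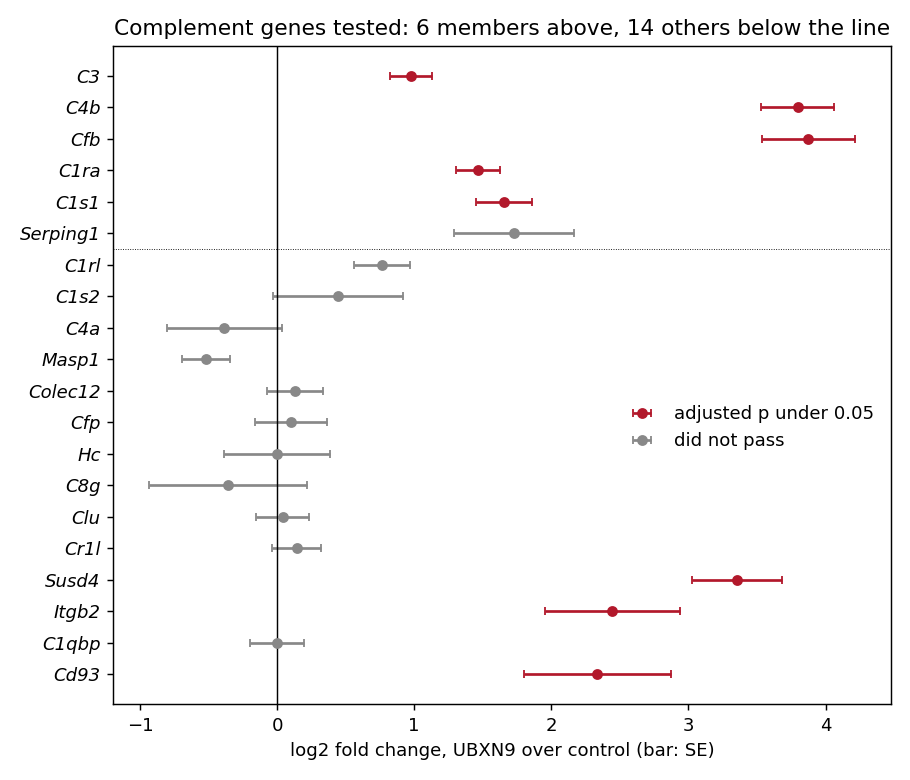
Log2 fold change, UBXN9 over control, of the 20 complement genes tested, with bars of 1 SE, red where the edgeR adjusted p was under 0.05. Members lie above the dotted line, where 5 of 6 are red, and the 14 others below it, where Susd4, Itgb2 and Cd93 are red.

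For each called member the nearest genes by pattern were found among tested genes off the lists with at least 2 CPM on average, by the root mean square difference of mean-centred log2(CPM + 0.5) over the 4 libraries. For Cfb they were Irgm2 and Tmem140, at 0.0404 and 0.0758. Irgm2, an immunity-related GTPase, had 328 and 310 CPM in UBXN9-overexpressing cells, against 41.6 and 35.0 CPM in control cells. For C4b they were Gm11427 and Apol6, at 0.0245 and 0.0332, and for C3 Rnf157 and Timp3, at 0.0162 and 0.0284. Lrpap1 and Pde1a came nearest to C1ra, at 0.0285 and 0.0325, and 5830432E09Rik and Plekha4 to C1s1, at 0.0364 and 0.0365. The added 0.5 flattens low genes: Gm11427 had a fitted log2 fold change of 6.25, against 3.80 for C4b, from 0.0763 and 0.0454 CPM in control cells. Irgm2 and Tmem140 had fitted log2 fold changes of 3.06 and 2.99, against 3.87 for Cfb, which had 0.687 and 0.454 CPM in control cells. With 4 libraries such nearness is a description.

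**Figure D5:**
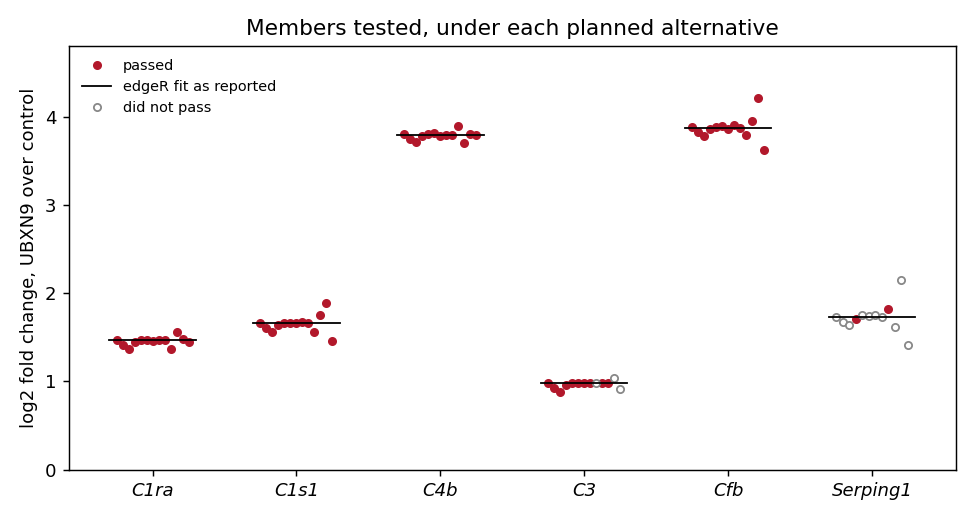
Log2 fold change, UBXN9 over control, of the 6 members tested under each of the 13 alternatives fixed for this comparison that gave it a value, filled where the gene passed, with a line at the reported edgeR value. C1ra, C1s1, C4b and Cfb are filled throughout, C3 is open at 3 points, of which 1 is the stricter threshold of 0.01, and Serping1 is filled at 2. Alternatives added after seeing the data, among them the sums of Cfb with Gm20547 and of C4b with C4a, are not drawn.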

How the data were processed

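Per the submitters' processing notes, the tools were HISAT2 2.1.0 and HTSeq, on build GRCm38.p6. Settings, annotation and strand handling are not given in the sources used here. TruSeq RNA libraries were sequenced on a HiSeq instrument, per the labels' protocols. The deposited table holds the authors' estimated counts per gene, unscaled and partly fractional. Values were rounded to whole counts. The 241 unannotated loci, 0.302% to 0.535% of counts, were left out. Positions, exon lengths and symbols came from GENCODE M21 (GRCm38), which held 55227 of 55487 identifiers.

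The comparison used edgeR 4.0.16 (R 4.3.3) with TMM factors, filterByExpr, quasi-likelihood F tests, two-sided, Benjamini-Hochberg over 13230 genes, called under 0.05. SEs are the unshrunk log2 coefficient over the root of F. The procedure was tested on simulated data, where the mean share of false calls exceeded the threshold of 0.05. Alternatives included DESeq2 1.42.0 and limma-voom (limma 3.58.1). Transcripts were aligned with edlib, and intervals are Clopper-Pearson. The members and lists were chosen with earlier results of these data known. Named genes were the members, Aspscr1, other complement genes that were called or highest in their role, nearest-pattern genes, and the highest marker of a list. Genes outside that rule (the C4, C1 and CD copies, Gm20547 and other overlapping or untested genes, Csf1r and the markers at 0) were named after their values were seen.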

Additional observations from a re-analysis of the deposited data

How the results depend on the processing

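C1ra, C1s1, C4b and Cfb passed under all 13 alternatives fixed for this comparison (RLE, upper-quartile and no composition factors, 2 filters, DESeq2, limma-voom, a replicate block, an adjusted p of 0.01, and each library left out), with log2 fold changes of 1.37 to 1.56, 1.45 to 1.89, 3.70 to 3.89 and 3.62 to 4.21. None of the 13 changed how reads were divided between entries. With entries summed, added after seeing the data, the log2 fold change was 1.50 for Cfb with Gm20547 and 2.81 for C4b with C4a. With 1 library dropped, the single library of a group is taken to vary like the other group. C3 then ranged from 0.91 to 1.04 and Serping1 from 1.41 to 2.15. All genes called were 984, against 1827 with no filter, 398 at an adjusted p of 0.01 (310 higher and 88 lower), and 508 to 2782 with a library left out. Other complement genes called were 3, against 5 with no filter and 1 with at least 5 CPM in 2 libraries, by DESeq2 or at 0.01, and 1 to 8 with a library left out. The replicate block gave 932 and 3 calls and changed no call of a member, and a crossed block, added after seeing the data because same-numbered libraries deviated in opposite directions (r = -0.482 across genes), gave 3137 and 5 and added the calls of Serping1, C1rl (adjusted p = 0.00543) and, lower, Masp1 (adjusted p = 0.00476). Hc turned negative with upper-quartile factors (-0.048), library size alone (-0.078), no filter (-0.018), limma-voom (-0.032), the block (-0.0499) and the crossed block (-0.039), and Clu with upper-quartile factors (-0.0103) and library size alone (-0.049). C1qbp turned positive with RLE (0.00201), the 5 CPM filter (0.0049) and DESeq2 (0.00201). With a library left out, Hc ranged from -0.56 to 0.39, C1qbp from -0.18 to 0.16 and Cfp from -0.20 to 0.35. The cause of these turns was not tested. Depth limits C2, Cd55 and Cd59a.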
